A study of Mus musculus with 30 samples.

Results

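The cytochrome P450 genes of families 1 to 4 were described in mouse liver across 5 label groups and mouse by mouse. They were taken as every gene whose symbol is Cyp followed by a digit from 1 to 4 and a letter, among probe sets that name a single gene, and each gene was read from whichever of its probe sets was brightest on average. The rule took 51 of 17097 genes: 3 of family 1, 29 of family 2, 6 of family 3 and 13 of family 4, 2 of them pseudogenes (Cyp2d13 and Cyp4f41-ps). The rule used no difference between groups.

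RNA came from 30 mice, 1 array a mouse, and was taken from liver tissue free of tumour. On the diet that the labels call CD-HFD there were 6 mice given aspirin with clopidogrel (AspClo), 10 given sulindac (Sulin), 4 given vehicle whose livers had HCC and fibrosis (Veh_high) and 5 given vehicle without HCC (Veh_low). The reference was 5 healthy mice on chow (Hlth), which carry the treatment label Vehicle. The labels give no strain, genotype, sex, age, dose, duration or hour of collection, and no batch. Diet, liver disease and drug are therefore set against chow-fed healthy livers together whenever a drug group is compared with them, and the comparisons share their healthy or vehicle mice. Values are log2 of the deposited RMA intensity, so a difference of 1 is a doubling. They were set between mice for 1 gene at a time and never between genes, since probe sets differ in how strongly they bind.

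Cytochromes P450 of these families are haem enzymes of the endoplasmic reticulum that oxidise drugs, steroids and fatty acids with electrons passed on by P450 oxidoreductase. In liver their genes answer to receptors for foreign compounds and lipids: AHR for family 1, CAR and PXR for many genes of subfamilies 2b, 2c and 3a, and PPAR-alpha for subfamily 4a. In mouse liver several of them also differ between the sexes, following the sex-specific pattern of growth hormone release. Other members oxidise arachidonic acid, either to epoxides or at the end of its chain.

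Every array had the markers of liver. The summed intensity of 7 of 8 hepatocyte markers lay between 47939.8 and 54551.2 over the 30 mice, and the kidney marker Umod stayed at 4.52 or below. The arrays were not alike in 3 respects that touch the results. In the aspirin with clopidogrel group Xist, the RNA that silences an X chromosome in female cells, was between 10.95 and 11.21 in AspClo_58, AspClo_61, AspClo_63 and AspClo_64. It was 5.03 or less in the other 26 mice. The Y-linked gene Eif2s3y was at 5.21 or less in these 4 mice and at 8.37 or more in the others. Kdm5d and Uty, also Y-linked, lay below the range of the other 26 mice too. The 4 mice thus had a female expression pattern, found in no other group. In comparisons that include them, sex and drug cannot be told apart. These 4 mice also had higher marker sums than AspClo_60 and AspClo_62, with 5458.5 to 7185.3 against 2620.4 and 3863.6 for Kupffer cells, 134.8 to 317.9 against 69.9 and 68.1 for neutrophils, 1760.4 to 2252.9 against 1607.1 and 1636.3 for endothelial cells and 52652.6 to 54551.2 against 50969.1 and 50116.2 for hepatocytes, and the part of these cells in the changes below was not tested. The summed erythroid markers ran from 11635.1 to 15087.9 under aspirin with clopidogrel and from 10864.1 to 14580.4 under sulindac, against 4384.1 to 10849.0 under vehicle with HCC, 3840.6 to 8594.9 under vehicle without HCC and 3249.2 to 6133.8 in healthy mice. The sum is carried by the globin genes: Hba-a1 and Hbb-b2 rose in both drug groups against healthy mice and vehicle, while Alas2, which starts haem synthesis in red cell precursors, fell under aspirin with clopidogrel by 1.23 against healthy mice (limma adjusted p = 0.0327) and by 1.11 against vehicle (adjusted p = 0.0325), with 7.12 to 7.87 in the mice with high Xist and 8.98 and 9.22 in the other two. A further point is that Veh_low_794 and Veh_low_1819 lay nearer the healthy mice, and Hlth_1798 and Hlth_1807 nearer the CD-HFD mice, in earlier work on the same values. Hlth_1807 also had the highest summed neutrophil (1038.1), cholangiocyte (408.6) and stellate cell (8355.0) markers of all 30 arrays and the lowest Kupffer cell sum (1186.4). Hlth_1798 had the highest Kupffer cell sum (8939.5) and the lowest hepatocyte sum (47939.8), and Veh_low_794 the highest adipocyte sum (424.4). In bulk tissue fewer cells of a type and less RNA per cell cannot be told apart.

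The members differed widely in how much they varied. Between the lowest and the highest mouse, the log2 intensity of a member spanned between 0.25 and 7.33; 30 members spanned over 1, 13 spanned over 2 and 11 under 0.5. The SD within groups, among mice of the same label, was above the 90th percentile of all genes for 27 members. Across the 5 groups, 11 members passed the F test (limma, Benjamini-Hochberg over all genes, adjusted p under 0.05), where 3.97% of all genes passed. These were Cyp3a16, Cyp3a41a, Cyp3a44, Cyp2d9, Cyp4a12a, Cyp2b9, Cyp2b13, Cyp2j5, Cyp2j6, Cyp4b1 and Cyp3a11.

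**Figure D1:**
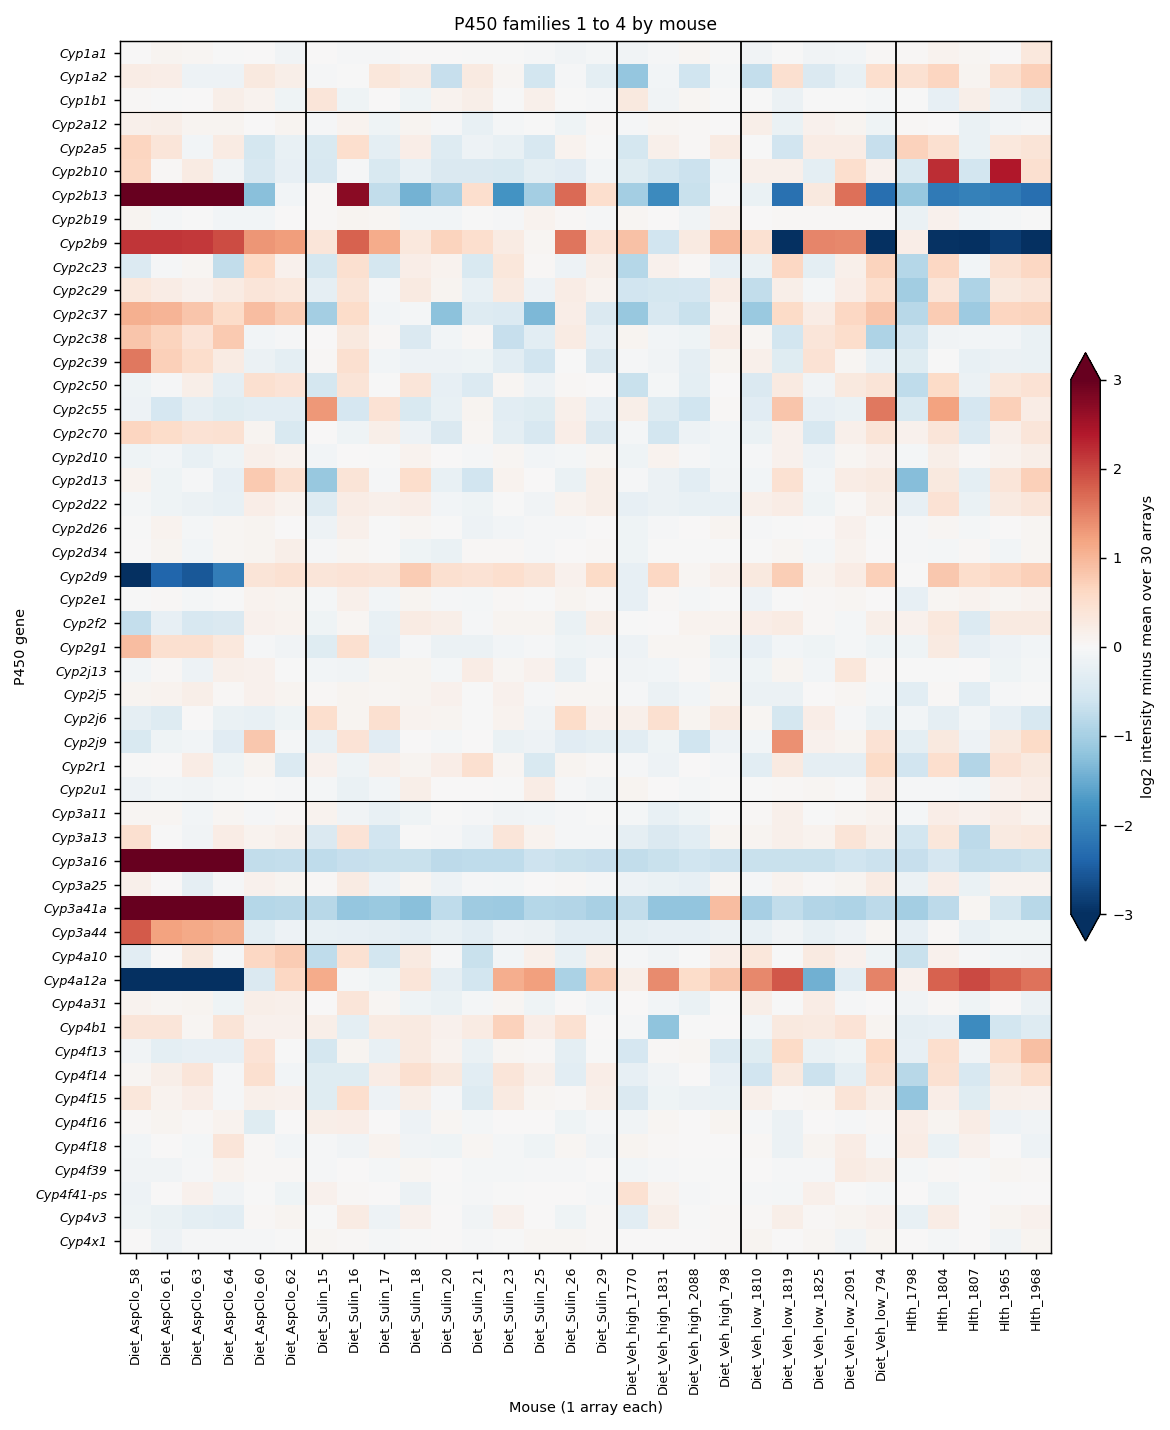
Log2 intensity of each of the 51 members (rows) in each of the 30 mice (columns) minus that member's mean over all mice, in colour, with colours capped at 3 above and below the mean. Columns run from aspirin with clopidogrel through sulindac, vehicle with HCC and vehicle without HCC to healthy chow. Cyp3a16, Cyp3a41a, Cyp3a44 and Cyp2b13 were high and Cyp4a12a and Cyp2d9 low in 4 aspirin with clopidogrel mice, and Cyp2b9 was low in most healthy mice.

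Genes known to differ between the sexes in mouse liver gave the largest changes among the members in the aspirin with clopidogrel group, which held the mice with high Xist. Of the 7 measured genes of a textbook list of P450 genes higher in females (12 listed), 4 rose against vehicle and none fell, with a median change of 2.37, and 5 rose against healthy mice. Over all members, 5 rose and 2 fell against vehicle, where 0.983% of genes rose and 0.977% fell (1.96% in all), and 7 rose and 2 fell against healthy mice, where 1.64% of genes rose and 1.13% fell (2.77% in all). The median change of all genes against vehicle was 0.0017. Of the 4 measured genes of the list higher in males (5 listed), Cyp2d9 and Cyp4a12a fell in both comparisons. Cyp2j5, also on that list but described below as male-typical in kidney, rose against healthy mice.

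Subfamily 3a holds the clearest of these genes. Cyp3a16, Cyp3a41a and Cyp3a44 are neighbours on chromosome 5 and encode testosterone and drug hydroxylases that adult female mice express in liver; Cyp3a11, the main drug-metabolising member of the subfamily in both sexes, lies beside them. Their promoters, 250 bases before to 50 bases after the annotated start (RefSeq, GRCm38.p6, all on the minus strand and printed in the direction of the gene), are shown because 3 of these neighbours moved together and the fourth did not. Capitals mark TTANNTAA, the core of the D-box bound by DBP and its relatives, and AGGTCA, a core element bound by nuclear receptors. They lie at chr5:145469674-145469973 (Cyp3a16), chr5:145720087-145720386 (Cyp3a41a), chr5:145805825-145806124 (Cyp3a44) and chr5:145879805-145880104 (Cyp3a11).
Cyp3a16: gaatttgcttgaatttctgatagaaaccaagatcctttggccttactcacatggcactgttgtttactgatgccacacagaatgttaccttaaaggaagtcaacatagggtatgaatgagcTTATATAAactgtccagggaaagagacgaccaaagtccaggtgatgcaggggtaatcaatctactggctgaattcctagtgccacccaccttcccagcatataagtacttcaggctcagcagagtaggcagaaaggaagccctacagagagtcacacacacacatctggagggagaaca
Cyp3a41a: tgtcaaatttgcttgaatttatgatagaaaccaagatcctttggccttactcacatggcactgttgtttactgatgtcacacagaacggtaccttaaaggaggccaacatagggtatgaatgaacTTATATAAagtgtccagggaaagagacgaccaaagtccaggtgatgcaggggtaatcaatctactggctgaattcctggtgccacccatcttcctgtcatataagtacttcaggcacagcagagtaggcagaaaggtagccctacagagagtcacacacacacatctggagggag
Cyp3a44: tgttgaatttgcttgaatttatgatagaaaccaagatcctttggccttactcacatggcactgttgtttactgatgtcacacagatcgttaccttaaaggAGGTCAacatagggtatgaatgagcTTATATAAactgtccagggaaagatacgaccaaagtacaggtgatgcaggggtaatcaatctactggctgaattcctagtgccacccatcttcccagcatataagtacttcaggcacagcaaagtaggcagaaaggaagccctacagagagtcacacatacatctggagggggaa
Cyp3a11: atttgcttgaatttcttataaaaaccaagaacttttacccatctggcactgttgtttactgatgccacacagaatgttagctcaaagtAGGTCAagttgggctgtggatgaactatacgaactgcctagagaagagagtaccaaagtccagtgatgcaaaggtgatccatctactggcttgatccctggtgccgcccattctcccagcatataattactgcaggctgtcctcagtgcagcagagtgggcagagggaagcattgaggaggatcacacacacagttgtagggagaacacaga

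Between 92.1% and 93.4% of alignment columns, gaps counted, held identical bases among the promoters of Cyp3a16, Cyp3a41a and Cyp3a44. The share was between 70.4% and 74.8% when each was set against Cyp3a11. The TTANNTAA match begins 129 bases before the start of Cyp3a16 and 125 bases before the starts of Cyp3a41a and Cyp3a44, and these letters are not in the window of Cyp3a11. AGGTCA begins 150 bases before the start of Cyp3a44 and 162 before that of Cyp3a11. Searched on both strands over all 32851 promoters of the same length, TTANNTAA is in 6.0% and AGGTCA in 16.3%; among the 46 promoters of the 40 members that have one in the table, the shares are 13.0% and 28.3%. The AHR core GCGTG is in 23.9% of the members' promoters and 32.4% of all, and the STAT site TTCNNNGAA in 4.3% and 8.3%. A match of letters is a description and not a binding site.

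Cyp3a16 read 10.08, 9.41, 9.13 and 8.47 in AspClo_58, AspClo_61, AspClo_64 and AspClo_63, and 4.09 and 4.13 in AspClo_60 and AspClo_62. It was between 4.06 and 4.20 (median 4.14) under sulindac, 4.09, 4.16, 4.18 and 4.23 under vehicle with HCC, 4.15, 4.16, 4.17, 4.19 and 4.24 under vehicle without HCC and 4.10, 4.12, 4.13, 4.15 and 4.33 in healthy mice. The 4 mice with high Xist thus stood far above every other mouse, and the other two of their group lay among the controls. The group mean was 7.55 ± 2.72 (SD, n = 6), against 4.18 ± 0.04 (n = 5) under vehicle without HCC and 4.17 ± 0.06 (n = 4) with HCC, and the fitted rise over all 9 vehicle mice was 3.37 (SE 0.61, limma adjusted p = 0.00337). Outside the 4 mice the gene lay near the floor of the arrays, so this fitted value, an average over 4 high and 2 low mice against a dim signal, is not an exact fold.

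Cyp3a41a read 12.02, 11.99, 11.95 and 11.82 in the 4 mice with high Xist, and 5.77 and 5.79 in AspClo_60 and AspClo_62. It was between 5.36 and 5.85 under sulindac, 5.44, 5.44, 5.89 and 7.54 under vehicle with HCC, between 5.62 and 5.88 under vehicle without HCC, and 5.59, 5.78, 5.84, 6.09 and 6.68 in healthy mice. The gene was therefore near its floor or modestly above it outside those 4 mice, with Veh_high_798 the next highest. The rise against vehicle was 3.99, or 15.9-fold (SE 0.75, limma adjusted p = 0.0046). Its near-identical copy Cyp3a41b can share these probes, so the signal of the pair is not separated.

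Cyp3a44 read between 5.91 and 6.68 in the 4 mice, 4.56 and 4.70 in the other two, and between 4.52 and 4.90 in all mice outside the group. It rose by 0.98 against vehicle (SE 0.19, limma adjusted p = 0.00731) and by 0.94 against healthy mice (SE 0.22, adjusted p = 0.0172; 0.0532 without AspClo_61). Cyp3a11 read between 12.63 and 12.78 in all 6 mice, against 12.50 to 12.88 under vehicle, a difference of 0.02 (SE 0.05, adjusted p = 0.87).

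Cyp2d9, a testosterone 16-alpha-hydroxylase typical of male liver, read 7.89, 8.92, 9.10 and 9.40 in the 4 mice with high Xist and 11.87 and 11.92 in the other two. Its range was 11.62 to 12.24 under sulindac, 11.22 to 12.22 under vehicle and 11.46 to 12.29 in healthy mice, all above those 4 mice. It fell by 1.92 against vehicle (SE 0.39, limma adjusted p = 0.00903). Cyp4a12a, a male-typical enzyme that hydroxylates the end carbon of arachidonic acid, read between 5.66 and 5.78 in the 4 mice and 9.34 and 10.38 in AspClo_60 and AspClo_62.

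Under vehicle without HCC Cyp4a12a read 8.32, 9.45, 11.22, 11.25 and 11.62, and with HCC 9.94, 10.31, 10.58 and 11.18, so none reached as low as those 4 mice. In healthy mice it read 9.90, 11.39, 11.53, 11.57 and 11.74, with Hlth_1798 the lowest. It fell by 3.32 against vehicle (SE 0.64, limma adjusted p = 0.00582) and by 4.11 against healthy mice (SE 0.73, adjusted p = 0.00167). Against sulindac, where it lay between 8.82 and 10.99, it fell by 2.91 (SE 0.62, adjusted p = 0.0191), and that call was lost without any one of the 4 mice (adjusted p of 0.0661 to 0.0804).

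Cyp2g1, a steroid hydroxylase of the olfactory lining that is dim in liver, read 4.88, 5.05, 5.05 and 5.48 in the 4 mice and 4.47 and 4.53 in the other two, against 4.32 to 4.63 under vehicle. Sulin_16 reached 5.04, within the range of the 4. Its rise of 0.44 against vehicle (SE 0.12, limma adjusted p = 0.0497) was lost without any one of 23 of the 30 arrays (adjusted p up to 0.17). Cyp2g1 is not on the list of genes higher in females. Of the genes on that list, Cyp4a10, which PPAR-alpha induces, differed by 0.15 from vehicle (adjusted p = 0.759), and Cyp2b10 by 0.12 (adjusted p = 0.906). Of those higher in males, Cyp2u1, a fatty acid hydroxylase, was lower by -0.11 on the log2 scale, without passing the test, and Cyp2j5 was higher by 0.17 (adjusted p = 0.0888). Cyp2c70, which makes muricholic acids in mice and was singled out after its values were seen, read 12.16 to 12.35 in the 4 mice and 12.11 or less in the other 26, and its change of 0.37 against vehicle did not pass (adjusted p = 0.264).

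**Figure D2:**
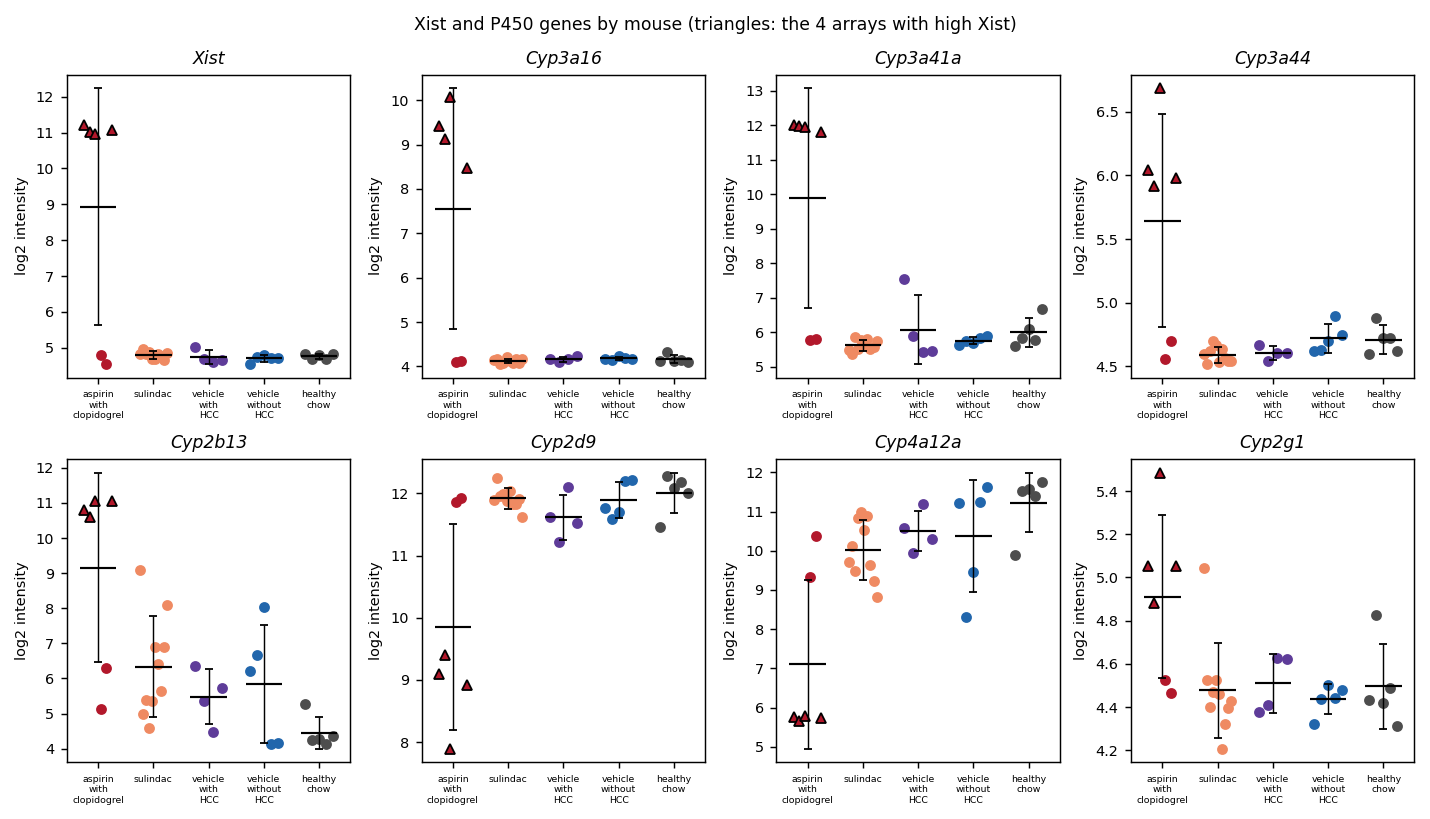
Log2 intensity by mouse of Xist and 7 members in the 5 groups. Triangles are the 4 mice with high Xist, the bar is the group mean and the error bar the SD. The triangles stand apart from all circles for Cyp3a16, Cyp3a41a, Cyp3a44, Cyp2b13, Cyp2d9 and Cyp4a12a, and overlap 1 sulindac mouse for Cyp2g1.

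Without the 4 mice with high Xist, 2 mice remained in the aspirin with clopidogrel group and their spread was taken to be like that of the other groups. No member then passed against vehicle, where 0.0409% of all genes passed, against healthy mice, where 0.216% passed, or in the F test, where 2.61% passed (limma, adjusted p under 0.05). The change against vehicle became -0.07 for Cyp3a16 (adjusted p = 0.798), -0.12 for Cyp3a41a (0.962), -0.04 for Cyp3a44 (0.933) and 0.12 for Cyp2d9 (0.931), each with its sign turned. It became 0.04 for Cyp2b13 (adjusted p = 0.995), 0.03 for Cyp2g1 (0.981) and -0.57 for Cyp4a12a (0.892). When only the aspirin with clopidogrel and vehicle arrays were fitted, no member passed. In that fit the wide spread within the aspirin with clopidogrel group was not averaged with the others. Its share of all genes is not given here, so the count does not single out the members.

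**Figure D3:**
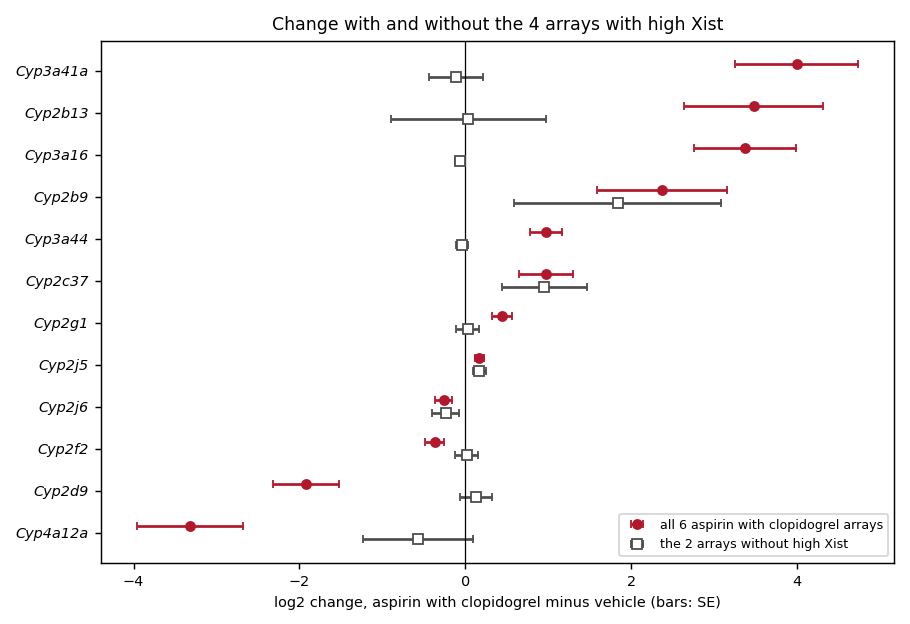
Log2 change of 12 members between aspirin with clopidogrel and vehicle, with its SE, using all 6 treated mice and using the 2 without high Xist. The changes of Cyp3a16, Cyp3a41a, Cyp3a44, Cyp2b13 and Cyp2d9 lay near 0 without the 4 mice.

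Against sulindac, the aspirin with clopidogrel group had 4 members higher, where 0.421% of genes rose, and 2 lower, where 0.456% fell (0.877% in all). The same 3 genes of subfamily 3a rose, Cyp3a16 by 3.43 (SE 0.60), Cyp3a41a by 4.27 (SE 0.73) and Cyp3a44 by 1.05 (SE 0.19), with limma adjusted p of 0.00604, 0.00515 and 0.00672. Cyp2d9 fell by 2.07 (SE 0.39, adjusted p = 0.00759). No member passed without the 4 mice with high Xist, where 0.298% of genes did.

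Subfamily 2b held the members that rose most in the drug groups against healthy livers. These were Cyp2b9 and Cyp2b13, while Cyp2b10, the member used as a marker of CAR, did not rise. Cyp2b9, a steroid hydroxylase that is female-typical in mice, was high in nearly every CD-HFD mouse; the mice with high Xist read 11.29 to 11.48, above every other mouse, and AspClo_60 and AspClo_62 read 10.66 and 10.60. Cyp2b9 and Cyp2b13 lie close together on the plus strand of chromosome 7, at chr7:26173159-26173458 and chr7:26061245-26061544 for the windows shown, and their promoters are printed because they are nearly the same although the 2 genes behaved differently.
Cyp2b9: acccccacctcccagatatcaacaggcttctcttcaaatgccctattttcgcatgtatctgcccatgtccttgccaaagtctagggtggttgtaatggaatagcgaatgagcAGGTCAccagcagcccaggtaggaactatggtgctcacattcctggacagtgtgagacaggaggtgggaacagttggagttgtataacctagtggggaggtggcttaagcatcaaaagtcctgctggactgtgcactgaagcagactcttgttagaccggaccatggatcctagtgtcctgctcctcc
Cyp2b13: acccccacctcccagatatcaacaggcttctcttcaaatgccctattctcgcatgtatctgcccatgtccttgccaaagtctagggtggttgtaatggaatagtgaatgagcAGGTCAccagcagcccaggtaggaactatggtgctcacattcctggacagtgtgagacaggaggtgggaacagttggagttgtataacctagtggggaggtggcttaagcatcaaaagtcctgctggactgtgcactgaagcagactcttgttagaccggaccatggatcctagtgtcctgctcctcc

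Of the 300 bases, 298 were identical, and AGGTCA (capitals) begins 138 bases before both starts. The 2 probe sets moved by unlike amounts between the same mice. Cyp2b9 read 10.66 in AspClo_60 against 11.29 to 11.48 in the mice with high Xist. Cyp2b13 read 5.13 in AspClo_60 against 10.60 to 11.06 in those mice. Cyp2b9 read between 10.60 and 11.48 (median 11.37) under aspirin with clopidogrel and between 9.39 and 11.10 (median 9.79) under sulindac. Under vehicle with HCC it read 8.75, 9.61, 10.22 and 10.32, and without HCC 4.14, 4.69, 9.78, 10.79 and 10.80. In healthy mice it read 5.57, 5.66, 6.38, 6.48 and 9.52. The aspirin with clopidogrel mice lay above all healthy mice, and the sulindac mice above all but Hlth_1798; the 2 low vehicle mice were Veh_low_794 and Veh_low_1819.

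Cyp2b9 rose by 3.32 under sulindac against healthy mice, or 9.96-fold (SE 0.82, limma adjusted p = 0.0222), and by 4.44 under aspirin with clopidogrel (SE 0.90, adjusted p = 0.00615). The sulindac call was lost without Hlth_1807 (adjusted p = 0.0542), Hlth_1804 (0.0548), Hlth_1965 (0.0635) or Hlth_1968 (0.0792). With only AspClo_60 and AspClo_62, the aspirin with clopidogrel change was 3.91 and did not pass (adjusted p = 0.364). Against healthy mice vehicle with HCC was higher by 3.0 (SE 1.0, adjusted p = 0.268) and vehicle without HCC by 1.32 (SE 0.94, adjusted p = 0.96), neither past the test. Summed erythroid markers were also higher in both drug groups than in healthy mice, and their part in this result was not tested.

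Cyp2b13 read 10.60, 10.79, 11.04 and 11.06 in the 4 mice with high Xist and 5.13 and 6.31 in the other two. It was between 4.59 and 9.08 (median 6.03) under sulindac, 4.49, 5.36, 5.72 and 6.36 under vehicle with HCC, 4.13, 4.15, 6.20, 6.67 and 8.04 without HCC, and 4.13, 4.26, 4.29, 4.35 and 5.26 in healthy mice. Beyond the 4 mice, the highest were Sulin_16, Sulin_26 (8.09) and Veh_low_2091. Cyp2b13 rose under aspirin with clopidogrel by 4.70 against healthy mice (SE 0.96, limma adjusted p = 0.00616) and by 3.48 against vehicle (SE 0.84, adjusted p = 0.0273), a call lost without any one of the 4 mice (adjusted p of 0.0746 to 0.097). Under sulindac it was higher by 1.88 than in healthy mice, without passing (adjusted p = 0.303).

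Cyp2b10, the usual marker of CAR activity, read lower in CD-HFD mice. It was between 4.30 and 5.39 under aspirin with clopidogrel, 4.29 and 4.73 under sulindac and 4.13 and 5.29 under vehicle, against 4.23, 4.31, 5.24, 6.98 and 7.17 in healthy mice, so that Hlth_1965 and Hlth_1804 stood above all others and the remaining healthy mice lay within the other groups. Its difference from healthy mice was -1.14 under sulindac (SE 0.32, limma adjusted p = 0.0503) and -0.92 under vehicle (SE 0.33, adjusted p = 0.586), neither past the test. Its other 2 probe sets also read lower under vehicle, by -0.74 and -0.56.

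Cyp3a11, a target of PXR, fell by 0.18 under sulindac against healthy mice (SE 0.05, limma adjusted p = 0.0383), with 12.65 ± 0.09 (SD, n = 10) under sulindac and 12.83 ± 0.11 (n = 5) in healthy mice, whose lowest mouse at 12.65 lay inside the sulindac range of 12.50 to 12.82. The call was lost without any one of 9 arrays (adjusted p up to 0.141). Cyp1a2, which oxidises caffeine and is induced through AHR, read 10.09, 10.66, 11.17 and 11.19 under vehicle with HCC, against 11.34, 11.72, 11.75, 11.90 and 11.96 in healthy mice. The groups did not overlap, but the difference of -0.96 (SE 0.24) did not pass (adjusted p = 0.122).

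Without HCC the vehicle mice read 10.55, 10.83, 11.04, 11.73 and 11.76 for Cyp1a2, the 2 highest of them again Veh_low_1819 and Veh_low_794. It averaged 11.36 ± 0.19 (SD, n = 6) under aspirin with clopidogrel and 11.19 ± 0.35 (n = 10) under sulindac, lower than the healthy mean of 11.73 ± 0.24 (n = 5) by amounts that did not pass (limma adjusted p = 0.45 and 0.14). Cyp1a1, the usual AHR reporter, read between 4.26 and 4.48 in all mice but Hlth_1968, at 4.70, and Cyp1b1, an AHR target mostly of other tissues, between 4.15 and 4.89. None of these 3 AHR genes passed in any comparison, and Cyp1b1 had a higher mean in every CD-HFD group than in healthy mice while Cyp1a1 and Cyp1a2 had lower ones.

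**Figure D4:**
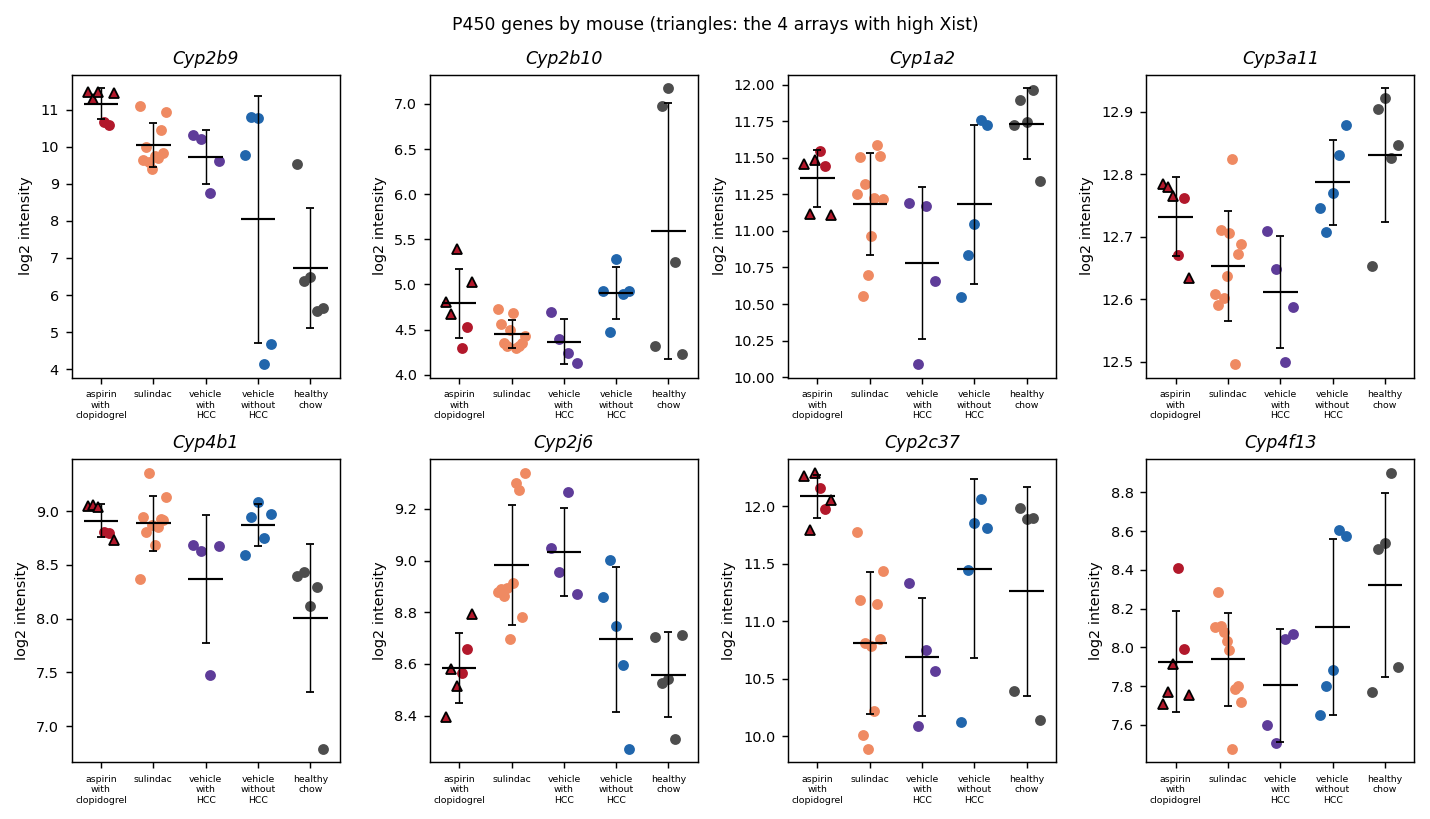
Log2 intensity by mouse of 8 members in the 5 groups, with group mean and SD, triangles marking the 4 mice with high Xist. Cyp2b9 was above 8 in all CD-HFD mice but 2 vehicle mice without HCC, and at 9.52 in 1 of 5 healthy mice.

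Subfamily 2c holds enzymes for drugs and arachidonic acid. Cyp2c37, which CAR induces, read between 11.79 and 12.29 (median 12.11) under aspirin with clopidogrel, against 9.89 to 11.77 (median 10.83) under sulindac, with no overlap. It rose by 1.28 between these groups (SE 0.31, limma adjusted p = 0.0461), but lost the call without any one of 16 of the 30 arrays (adjusted p up to 0.112). With only AspClo_60 and AspClo_62, at 12.15 and 11.98, the change was as large at 1.26 and did not pass (adjusted p = 0.368).

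Cyp2c37 also split the healthy mice, with 10.14 and 10.39 in Hlth_1807 and Hlth_1798 and 11.88, 11.89 and 11.99 in the other three. Cyp2c29, a phenobarbital-inducible epoxygenase, averaged 12.19 ± 0.08 (SD, n = 6) under aspirin with clopidogrel, 11.99 ± 0.23 (n = 10) under sulindac, 11.57 ± 0.38 (n = 4) under vehicle with HCC, 11.94 ± 0.46 (n = 5) without HCC and 11.72 ± 0.73 (n = 5) in healthy mice. Cyp2c55, another CAR and PXR target, read between 5.29 and 7.47 over all mice, with overlapping groups. Neither passed in any comparison. Of the 13 measured genes of a list for CAR or PXR (15 listed), 1 rose and 1 fell under sulindac against healthy mice (2.98% of all genes passed). Under aspirin with clopidogrel 3 rose against healthy mice (2.77% passed), and none passed under vehicle. Those 3 were Cyp2b9, Cyp2b13 and Cyp3a16, which are also on the list of genes higher in females. All lost the call without the mice with high Xist, with only AspClo_60 and AspClo_62 left in the group. Their changes were then 3.91, 1.26 and -0.06 (limma adjusted p = 0.364, 0.845 and 0.883), so that of Cyp2b9 stayed large.

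Among members that act on fatty acids, Cyp4b1, which also activates furans and aromatic amines, was higher in both drug groups. It read between 8.73 and 9.06 under aspirin with clopidogrel and between 8.37 and 9.35 (median 8.90) under sulindac, against 6.79, 8.12, 8.29, 8.39 and 8.43 in healthy mice. The aspirin with clopidogrel mice lay above all healthy mice, and 1 sulindac mouse lay within their range. Cyp4b1 rose by 0.88 under sulindac (SE 0.21, limma adjusted p = 0.016) and by 0.91 under aspirin with clopidogrel (SE 0.23, adjusted p = 0.0251). The first call held without any single array but not without the 4 healthy and vehicle arrays nearer the other group (0.61, adjusted p = 0.0511); the second was lost without Hlth_1807 (adjusted p = 0.0698), AspClo_58 (0.0596), AspClo_61 (0.0588) or AspClo_64 (0.0564).

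Under vehicle Cyp4b1 averaged 8.37 ± 0.60 (SD, n = 4) with HCC, where Veh_high_1831 read 7.47, and 8.87 ± 0.20 (n = 5) without HCC, with changes of 0.36 (adjusted p = 0.737) and 0.87 (adjusted p = 0.449) from healthy mice (limma). Cyp2j6 and Cyp2j5 are arachidonic acid epoxygenases. Cyp2j6 read between 8.70 and 9.34 (median 8.89) under sulindac and 8.87, 8.95, 9.05 and 9.26 under vehicle with HCC, against 8.31, 8.53, 8.54, 8.70 and 8.71 in healthy mice. The lowest sulindac mouse overlapped the highest healthy mice and the mice with HCC did not.

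Cyp2j6 rose by 0.42 under sulindac against healthy mice (SE 0.11, limma adjusted p = 0.0308), a call lost without Hlth_1804 (adjusted p = 0.0696), Hlth_1965 (0.0779), Hlth_1968 (0.119), Sulin_17 (0.0515) or Sulin_26 (0.0505). Under aspirin with clopidogrel it differed by 0.03 from healthy mice (adjusted p = 0.959), and its second probe set by 0.37. Cyp2j5, which is male-typical in kidney, rose by 0.24 under aspirin with clopidogrel against healthy mice (SE 0.06, adjusted p = 0.0251), with 11.79 to 11.93 against 11.42, 11.44, 11.71, 11.73 and 11.78 and no overlap. That call was lost without Hlth_1807 (adjusted p = 0.0874), Hlth_1798 (0.0719), AspClo_63 (0.0579) or AspClo_61 (0.0507).

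Over all members, 3 rose and 1 fell under sulindac against healthy mice, where 1.99% of genes rose and 0.988% fell (2.98% in all; limma, adjusted p under 0.05). The count stayed at 4 without the mice with high Xist, where 3.28% of genes passed. It was 1 without Hlth_1965 and 2 without Hlth_1804, Hlth_1968 or Sulin_17. Of the 10 measured genes for arachidonic acid (13 listed), 1 rose in that comparison. Of the 2 measured PPAR-alpha genes (4 listed) none passed in any comparison, and Cyp4a10 read between 10.95 and 12.47 over all mice.

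Several further members made no call in any comparison. Cyp2e1, which oxidises ethanol and acetaminophen, averaged 12.92 ± 0.06 (SD, n = 6) under aspirin with clopidogrel, 12.91 ± 0.08 (n = 10) under sulindac, 12.83 ± 0.12 (n = 4) under vehicle with HCC, 12.89 ± 0.08 (n = 5) without HCC and 12.91 ± 0.15 (n = 5) in healthy mice. The largest of its 9 changes, -0.08 between vehicle with HCC and healthy mice, did not pass (limma adjusted p = 0.769). Cyp2f2, an enzyme of the periportal zone that oxidises naphthalene, averaged 12.18 ± 0.33 under aspirin with clopidogrel and 12.57 ± 0.30 in healthy mice. In the mice with high Xist it read 11.75 to 12.20, and in the other 2 of their group 12.56 and 12.58. Cyp2d26, Cyp3a25 and the fatty acid hydroxylase Cyp4v3 had group means within 12.54 to 12.59, 11.91 to 12.13 and 11.66 to 11.89. Cyp4v3 read 11.48 to 11.66 in the mice with high Xist and 11.82 and 11.88 in the other 2 of their group. None of these genes passed in any comparison.

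Cyp2a5, the coumarin hydroxylase, averaged 11.99 to 12.22 in the CD-HFD groups and 12.49 ± 0.33 (SD, n = 5) in healthy mice, with overlap and no call. Cyp3a13, a PXR target, and Cyp4f14, which inactivates leukotriene B4, had group means of 10.45 to 10.87 and 9.86 to 10.17. Cyp2j9, a further epoxygenase, averaged 5.06 ± 0.22 (n = 4) under vehicle with HCC and 5.75 ± 0.58 (n = 5) without HCC, a difference of -0.69 (SE 0.24, limma adjusted p = 0.336). The 21 members outside the rule for named genes made no call, and their changes ran from -0.52 to 0.64. The highest was Cyp2c38 between aspirin with clopidogrel and healthy mice (limma adjusted p = 0.118), singled out after its values were seen. Cyp2c38 read 9.92 to 10.32 in the mice with high Xist and 9.41 and 9.46 in the other 2 of their group. Of all 51 members, 17 had a mean below that of the median gene, so that a change near the floor of the array could be missed.

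**Figure D5:**
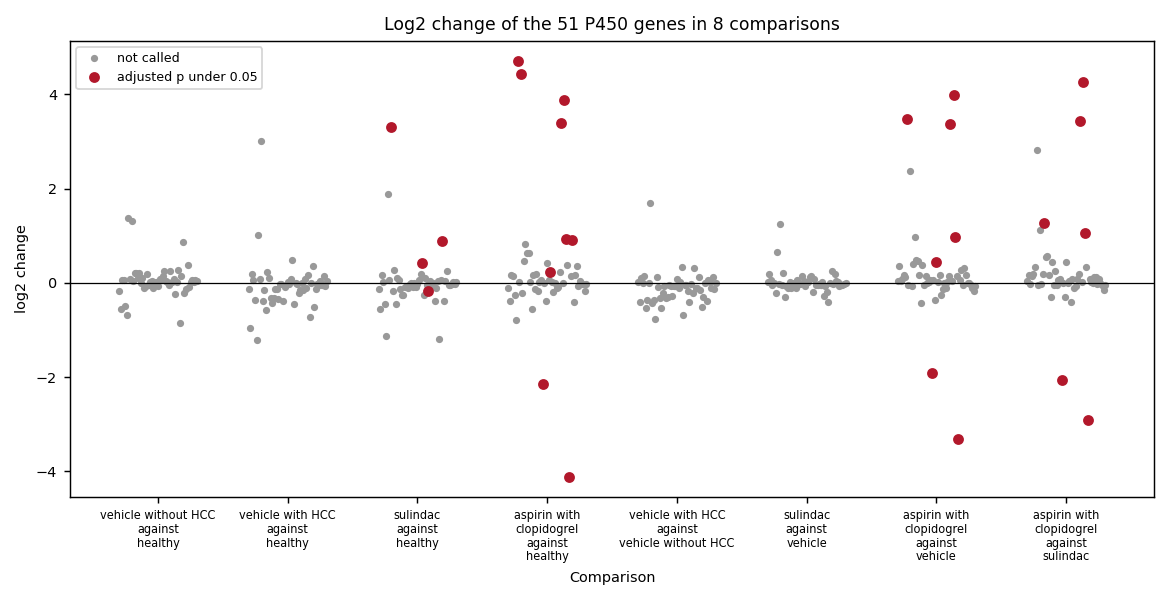
Log2 change of each of the 51 members (points) in 8 comparisons between groups, those past adjusted p 0.05 in red. Calls fell in the comparisons that involve aspirin with clopidogrel or set sulindac against healthy mice, and the vehicle comparisons had none.

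In the comparisons of vehicle no member passed (limma, adjusted p under 0.05). Against healthy mice, 0.0117% of all genes passed for all vehicle mice, 0.0994% for those with HCC and 0.0% for those without; at an unadjusted p under 0.05 the members numbered 8, 9 and 4, where 6.73%, 9.26% and 5.32% of genes passed. Between vehicle mice with and without HCC 0.0877% of genes and no member passed, with 6 members at an unadjusted p under 0.05, where 8.87% of genes passed. Between sulindac and vehicle 0.199% of genes and no member passed, and only Cyp2j5 had an unadjusted p under 0.05, where 10.4% of genes did. The members' median change from healthy mice was -0.01 for all vehicle mice, with 24 of 51 higher, and 51.79% of all genes were higher.

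Without Hlth_1798, Hlth_1807, Veh_low_794 and Veh_low_1819, more members passed in several comparisons, while others lost their call. These mice were picked on measured values for lying nearer the other group, so the larger counts follow in part from the choice and are no independent support. Between vehicle and healthy mice 12 members passed, where 5.61% of all genes did (limma, adjusted p under 0.05). Cyp2b9 was higher by 3.89 and Cyp2j6 by 0.51, and Cyp2b10 was lower by -1.87, Cyp1a2 by -1.08, Cyp2c55 by -0.94, Cyp4f14 by -0.72, Cyp2c29 by -0.61, Cyp3a11 by -0.22 and Cyp1a1 by -0.21 on the log2 scale. Cyp4f13, Cyp2r1 (a vitamin D 25-hydroxylase) and Cyp2d22, named after their values were seen, were lower by -0.85, -0.57 and -0.48. Over all arrays the second probe set of Cyp2d22 differed by 0.03 between vehicle and healthy mice, and the one used by -0.18.

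In the same arrays 7 members passed between vehicle without HCC and healthy mice (2.95% of genes), 8 with HCC (5.01%), 10 between sulindac and healthy mice (7.76%), 11 between aspirin with clopidogrel and vehicle (4.79%) and 20 in the F test (10.5%). The calls lost were Cyp4b1 under sulindac (0.61, limma adjusted p = 0.0511) and under aspirin with clopidogrel (0.63, adjusted p = 0.073), Cyp2j5 (0.12, adjusted p = 0.262) and Cyp3a44 (0.87, adjusted p = 0.0662) under aspirin with clopidogrel against healthy mice, and Cyp2g1 against vehicle (0.44, adjusted p = 0.0571).

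Genes that serve P450 enzymes were mostly level. Of 14 measured genes of electron supply and haem (16 listed), none rose and 1 fell in each drug group against healthy mice. That gene was Blvrb, which reduces biliverdin and is abundant in red cells, lower by -0.55 under sulindac (limma adjusted p = 0.00241) and by -0.72 under aspirin with clopidogrel (adjusted p = 0.000378), while the erythroid sums above were higher. Cyb5r3, which passes electrons to cytochrome b5, was lower by -0.37 under aspirin with clopidogrel than under sulindac. Of 21 measured regulators (22 listed), the clock output factor Dbp rose by 3.45 under sulindac (SE 0.86, adjusted p = 0.0237) and its opponent Nfil3 fell by 1.18 (SE 0.31, adjusted p = 0.0308). Dbp read between 5.29 and 10.20 under sulindac against 4.63 to 6.19 in healthy mice, and between 4.37 and 10.20 under vehicle with HCC. The labels give no hour of collection, and the part of these differences in the P450 changes was not tested.

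Cux2, a female-typical repressor of male liver genes, rose by 1.52 under aspirin with clopidogrel against vehicle (SE 0.31, limma adjusted p = 0.00879). It read 7.40, 7.44, 5.29 and 7.05 in AspClo_58, AspClo_61, AspClo_63 and AspClo_64, against 4.79 or less in the other 26 mice. No other listed regulator passed in any comparison, among them the genes of AHR, CAR, PXR and PPAR-alpha.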

How the data were processed

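Liver RNA of 30 mice was hybridised to Affymetrix HT MG-430 PM arrays. The deposited values are linear intensity, which the authors made by RMA with quantile normalization, per the labels and the series' design text; the versions are not given in the sources used here. That text counts 4 vehicle mice and the labels 9, and groups followed the labels. Array medians lay between 24.1 and 24.6, and the number of arrays limits the precision.

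Of 45141 probe sets, 28898 named 1 gene symbol, 551 several and 15588 none. Of the 28898, 28689 were matched to RefSeq (GRCm38.p6) and 209 kept the symbol they came with. Together the 28898 gave 17097 genes. No probe set with several symbols named a member family. Intensities were put on the log2 scale and fitted with limma 3.58.1 (R 4.3.3), 1 mean per group over all 30 arrays (25 residual degrees of freedom), with Benjamini-Hochberg adjustment over all genes and a threshold of 0.05. All vehicle mice were averaged as 1 control where vehicle is named alone. The fit was tested on simulated data. Promoters were aligned with Biopython 1.88.

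Members and lists were chosen with earlier results of these data known. Named genes were every member past the threshold, the 3 with the smallest p in each comparison, the 5 with the highest mean, the 5 with the largest SD and examples of each role; of these Cyp2a4, Cyp4a12b and Cyp4a14 had no probe set of their own. Alternatives were each mouse left out, another normalization, probe set rule, dim filter, variance prior, array weights, fits of only the groups compared and either vehicle group as control. The 2 sets of 4 arrays left out were chosen after seeing the data. No protein sequences were used here, and promoters of 11 members, Cyp4a12a among them, were not used here.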

Additional observations from a re-analysis of the deposited data

Results flagged for a closer look

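In 14 of 150 groups of mice tested over 30 members, the highest or lowest mouse stood apart from the rest of its group by Dixon's criterion, which chance meets in about 1 in 20 groups.

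Hlth_1798 had the highest Cyp2b9 (9.52) and Cyp2b13 (5.26) and the lowest Cyp4a12a (9.90) and Cyp2e1 (12.65) among healthy mice. Hlth_1807 had the lowest Cyp4b1 (6.79) and Cyp2f2 (12.04), and Hlth_1804 the highest Cyp3a16 (4.33). Sulin_16 had the highest Cyp2g1 (5.04) and Cyp2j9 (5.78) of the sulindac mice, and Sulin_15 the highest Cyp2c55 (7.18). AspClo_60 had the highest Cyp2j9 (6.17) of its group. Under vehicle with HCC, Veh_high_1831 had the lowest Cyp4b1 (7.47) and Veh_high_798 the highest Cyp2c29 (12.14). Under vehicle without HCC, Veh_low_1819 had the lowest Cyp1b1 (4.36).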

How the results depend on the processing

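The number of members past the test differed between settings. Where no share of all genes is given here or above, a count does not single out the members. This holds for fits of a single pair of groups, brighter genes, vehicle with HCC as control and array weights. When each pair of groups was fitted alone, 1 member passed for 1 drug group against healthy mice. For aspirin with clopidogrel against vehicle 0 passed in that setting. With only brighter genes, or with only vehicle mice with HCC as control, 4 passed for aspirin with clopidogrel against vehicle. Array weights gave 4 members for vehicle and 7 for vehicle with HCC against healthy mice, 10 for sulindac and 14 for aspirin with clopidogrel against healthy mice, 13 against sulindac and 18 in the F test. Without the 4 healthy and vehicle arrays nearer the other group, the counts were 12, 7 and 8 for vehicle, vehicle without HCC and vehicle with HCC against healthy mice, 10 for sulindac against healthy mice, 11 for aspirin with clopidogrel against vehicle and 20 in the F test. Without the 4 arrays with high Xist, 0 members passed in the 3 comparisons of aspirin with clopidogrel and in the F test. There Cyp3a16 turned to -0.0588 against healthy mice, -0.0692 against vehicle and -0.0172 against sulindac, Cyp3a41a to -0.22 and -0.12 and Cyp3a44 to -0.0834 and -0.0419 against healthy mice and vehicle, and Cyp2d9 to 0.12 against vehicle. Both sets of arrays were chosen after seeing the data. Leaving out each mouse in turn gave 7 to 12 members in the F test, 6 to 12 for aspirin with clopidogrel against healthy mice, 5 to 9 against vehicle and 4 to 10 against sulindac (10 without AspClo_62), 1 to 6 for sulindac against healthy mice, 0 to 2 for vehicle with HCC against healthy mice (1 without Hlth_1798, 2 without Hlth_1807) and 0 to 0 in the other comparisons. The F test gave 7 without AspClo_58 or AspClo_61. The calls over all genes moved as well, with 475 to 884 genes in the F test. They ran from 283 to 729 for aspirin with clopidogrel against healthy mice, 123 to 571 against vehicle and 54 to 270 against sulindac. For sulindac against healthy mice they ran from 272 to 732, and for vehicle with HCC against healthy mice from 1 to 110. The causes were not tested. For single members, 141 values under the other planned settings kept their call and 22 lost it with the same sign. No paired analysis was possible because the groups share no mouse numbers. Probe sets near the floor, and near-identical genes read by shared probes, limit what can be measured.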
